A study of Homo sapiens with 16 samples.

Results

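The vehicle-treated (Ctrl) cultures of the study were described on their own, the 6 h Ctrl libraries set against the 3 h Ctrl libraries. They made up 8 of the 16 RNA-seq libraries, 4 at each time, and no library that received the plant preparation entered the comparison. The cells were 16HBE, a human bronchial epithelial line immortalised with the SV40 large T antigen and derived from a single donor, so the libraries describe 1 line and not the airway of a person. All 8 cultures had been seeded in medium with reduced serum, left to adhere overnight, and then given fresh medium of the same kind with the ethanol vehicle, for 6 h or for 3 h. The 6 h cultures came from a later, separate set of 4 experiments, and the labels give passages 15 to 17 for the cells. Expression was given in 1 table for each time as TPM, the abundance of a gene's transcripts corrected for their length and scaled to the same total in every library. TPM was summed by gene symbol within each table, and the 12262 symbols with a mean of at least 1 TPM in each group were compared, of 17268 symbols present in both tables.

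Time was not the only thing that differed between the groups. The 6 h and 3 h libraries belonged to different experiments, and their tables rested on different gene annotations, so time, experiment and annotation cannot be told apart in any difference below. The 6 h table listed 24671 gene IDs, 5825 of them lncRNA genes of GENCODE 44, and the 3 h table listed 19303, with 39 lncRNA genes. Several gene IDs stood behind 24 symbols at 6 h and 416 symbols at 3 h, and IDs absent from GENCODE 44 took 0.135 to 0.156% of TPM at 6 h and 5.54 to 5.998% at 3 h. Among the symbols compared, 11874 had 1 and the same gene ID in both tables, and for the other 388 the number or identity of the IDs differed. Correlations of log2(TPM + 1) across genes were 0.984 to 0.988 within the 6 h group, 0.980 to 0.989 within the 3 h group and 0.960 to 0.975 between the groups. Genes are not independent replicates, and these values are descriptive.

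Airway epithelial cells hold their barrier through keratins, cadherin junctions and tight junctions, and they respond to a change of medium through growth factor receptors, whose signal runs through the kinase ERK to a first wave of short-lived transcripts, the immediate-early genes. The same cells sense stress and foreign matter. The aryl hydrocarbon receptor (AhR) binds planar aromatic compounds and switches on CYP1B1 and TIPARP, NF-kB drives chemokine and adhesion genes together with its own regulators, and interferon signalling switches on a large set of antiviral genes through the factor complex ISGF3. Gene lists for these and other programmes were set out for the description, and each is given below with how many of its measured members passed the test.

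The promoter windows of 5 such genes are shown because the AhR, NF-kB and interferon lists held called genes with clear values in every library. The windows are RefSeq sequences of GRCh38.p14, each from 250 bases before to 50 bases after an annotated start, 5′ to 3′ on the strand of the gene. Capitals mark matches, on either strand, to the xenobiotic response core GCGTG in TIPARP, to the kappa-B consensus in NFKB2 and NFKBIZ, and to the interferon-stimulated response core GAAANNGAAA in PARP14 and IFIT1. For a gene with several windows, a window with the most matches is shown.
TIPARP (chr3:156674340-156674639, plus strand): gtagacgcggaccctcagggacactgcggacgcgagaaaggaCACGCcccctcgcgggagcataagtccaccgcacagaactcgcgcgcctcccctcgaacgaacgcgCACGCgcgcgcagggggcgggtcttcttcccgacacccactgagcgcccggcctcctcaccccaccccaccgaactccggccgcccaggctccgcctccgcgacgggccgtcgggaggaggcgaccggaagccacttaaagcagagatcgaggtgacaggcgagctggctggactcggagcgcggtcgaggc
NFKB2 (chr10:102394328-102394627, plus strand): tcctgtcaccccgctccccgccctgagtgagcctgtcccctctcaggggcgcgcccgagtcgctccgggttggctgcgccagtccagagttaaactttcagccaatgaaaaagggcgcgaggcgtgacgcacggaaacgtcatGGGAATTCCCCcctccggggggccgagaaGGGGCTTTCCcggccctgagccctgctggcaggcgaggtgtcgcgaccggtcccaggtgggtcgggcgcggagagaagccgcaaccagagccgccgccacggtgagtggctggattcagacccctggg
NFKBIZ (chr3:101827740-101828039, plus strand): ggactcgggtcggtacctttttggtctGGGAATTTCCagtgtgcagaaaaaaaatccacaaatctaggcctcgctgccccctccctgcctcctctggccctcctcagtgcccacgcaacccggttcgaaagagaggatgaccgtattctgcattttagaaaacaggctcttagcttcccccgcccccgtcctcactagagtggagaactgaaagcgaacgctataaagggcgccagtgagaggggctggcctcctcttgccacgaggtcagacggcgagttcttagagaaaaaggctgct
PARP14 (chr3:122680589-122680888, plus strand): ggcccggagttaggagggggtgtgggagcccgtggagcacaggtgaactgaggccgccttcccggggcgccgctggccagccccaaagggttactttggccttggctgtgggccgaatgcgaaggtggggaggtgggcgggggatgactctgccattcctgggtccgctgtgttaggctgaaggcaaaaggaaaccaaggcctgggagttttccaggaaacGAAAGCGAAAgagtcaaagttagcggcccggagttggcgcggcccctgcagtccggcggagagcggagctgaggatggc
IFIT1 (chr10:89392373-89392672, plus strand): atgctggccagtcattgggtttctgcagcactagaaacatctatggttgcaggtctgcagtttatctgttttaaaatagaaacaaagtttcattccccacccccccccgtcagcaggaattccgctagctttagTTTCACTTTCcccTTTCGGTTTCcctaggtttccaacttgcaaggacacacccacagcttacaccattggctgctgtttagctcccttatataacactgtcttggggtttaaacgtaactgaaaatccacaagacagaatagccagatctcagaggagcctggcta

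In NFKB2, 2 of the 3 matches overlap each other, and the letters of the xenobiotic core are also part of the core that hypoxia-inducible factors bind. The core GCGTG was present in 36.5% of all 35116 RefSeq windows, the kappa-B consensus in 5.91% and GAAANNGAAA in 3.57%. Of the 3 measured AhR targets 2 had a window and both held GCGTG, as did 59.1% of the 9289 compared symbols with a window. Of the 33 measured interferon-stimulated genes with a window, 22 had GAAANNGAAA in at least 1 window, against 3.85% of those compared symbols. Of the 17 measured NF-kB genes with a window, 11 had the kappa-B consensus, against 9.02% of the compared symbols. A match is a run of letters, not a shown binding site, and no window was given for CYP1B1.

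At baseline the vehicle cultures expressed the genes of a simple epithelium at high levels. Levels are per transcript length and are given as the mean over 4 libraries with its SD, for 6 h Ctrl and then for 3 h Ctrl. The ribosomal protein gene RPL41 had the highest level of all nuclear protein-coding symbols, 20373 ± 893 TPM at 6 h and 19288 ± 669.9 TPM at 3 h. HLA-B, which presents peptides at the cell surface, followed with 9571 ± 368 and 8573 ± 1068 TPM. Most HLA class I and peptide loading genes tested had gene IDs that differed between the tables. The keratin KRT8 came after HLA-B with 6511 ± 789 TPM at 6 h and 6883 ± 777 TPM at 3 h. Its filament partner KRT18 had 1298 ± 188 and 1703 ± 269.5 TPM, KRT7 1038 ± 55.6 and 1284 ± 148 TPM, and KRT19 852 ± 43.6 and 757 ± 55.0 TPM. The other symbols among the 15 highest were RPL10, RPS18, NPM1, EEF1A1, RPS3, GAPDH, RPL14, ACTB, LDHA, RPL30, RPL5 and EIF4G2, which serve ribosomes, translation, glycolysis and the cytoskeleton. The processed pseudogene TMSB4XP6 was also listed at 15569 ± 1312 TPM at 6 h and 14020 ± 1016 TPM at 3 h, uncertain because its reads can be shared with its parent gene. Of these 15, RPS18, whose gene IDs differed between the tables, and EIF4G2 passed the test. The other 13 did not, with log2 differences between -0.32 in LDHA and 0.17 in HLA-B.

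Epithelial markers were high, and the factor that defines airway basal cells was not. E-cadherin (CDH1) stood at 779 ± 59.6 TPM at 6 h and 933 ± 27.1 TPM at 3 h, EPCAM at 332 ± 19.5 and 326 ± 7.79 TPM, CLDN7 at 311 ± 21.5 and 335 ± 23.0 TPM, and the epithelial transcription factor GRHL2 at 84.4 ± 7.04 and 74.9 ± 5.50 TPM. Among basal-cell genes, KRT17 was high, with 308 ± 37.6 TPM at 6 h and 299 ± 23.0 TPM at 3 h, whereas TP63, that factor, was near 0 in every library, at 0.0795 to 0.171 TPM at 6 h and 0.0988 to 0.172 TPM at 3 h. KRT14 had 1.60 to 2.94 TPM at 6 h and 1.56 to 2.73 TPM at 3 h. KRT5 was expressed, with 36.1 to 42.7 TPM at 6 h and 51.8 to 78.1 TPM at 3 h. Of 13 basal markers listed, 10 passed the level filter. The summed level of that list was 840 to 913 TPM at 6 h and 919 to 1153 TPM at 3 h. Vimentin (VIM) was at 0.0153 to 0.152 TPM at 6 h and 0.218 to 0.547 TPM at 3 h. The ciliated-cell factor FOXJ1 stayed at or below 0.119 TPM, the leukocyte gene PTPRC at or below 0.308 TPM and the endothelial gene PECAM1 at or below 0.199 TPM in the 8 libraries. Other ciliated markers were expressed, and 3 of the 10 listed passed the level filter. The summed level of the ciliated list was 36.08 to 44.02 TPM at 6 h and 24.98 to 43.86 TPM at 3 h. The summed level of the leukocyte list was 25.4 to 32.4 TPM at 6 h and 27.2 to 30.0 TPM at 3 h, most of it CD68, a lysosomal gene that epithelial cells also express.

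The 841 symbols higher in 6 h Ctrl were 6.86% of those compared, and the 820 lower were 6.69%, by limma with Benjamini-Hochberg adjustment at 0.05. The count of each gene list below is to be read beside these shares. A difference is given as log2(TPM + 1) at 6 h minus that at 3 h with its standard error, a scale that understates the change of low genes. Most shifts were small. Of all symbols, 91.0% lay within 0.5 on that scale, and among the called symbols the median size was 0.47, with 42 higher and 116 lower by more than 1. Over all symbols the median difference was 0.02. When TPM was rescaled to the shared symbols, 1098 were called higher and 697 lower, so that the share of rises among the calls was 61.2% in place of 50.6%. Of the 1661 calls, 718 kept their direction and their side of the threshold in all 8 fits that each left out 1 library. All p-values measure the spread between the 4 replicate cultures of each group.

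**Figure D1:**
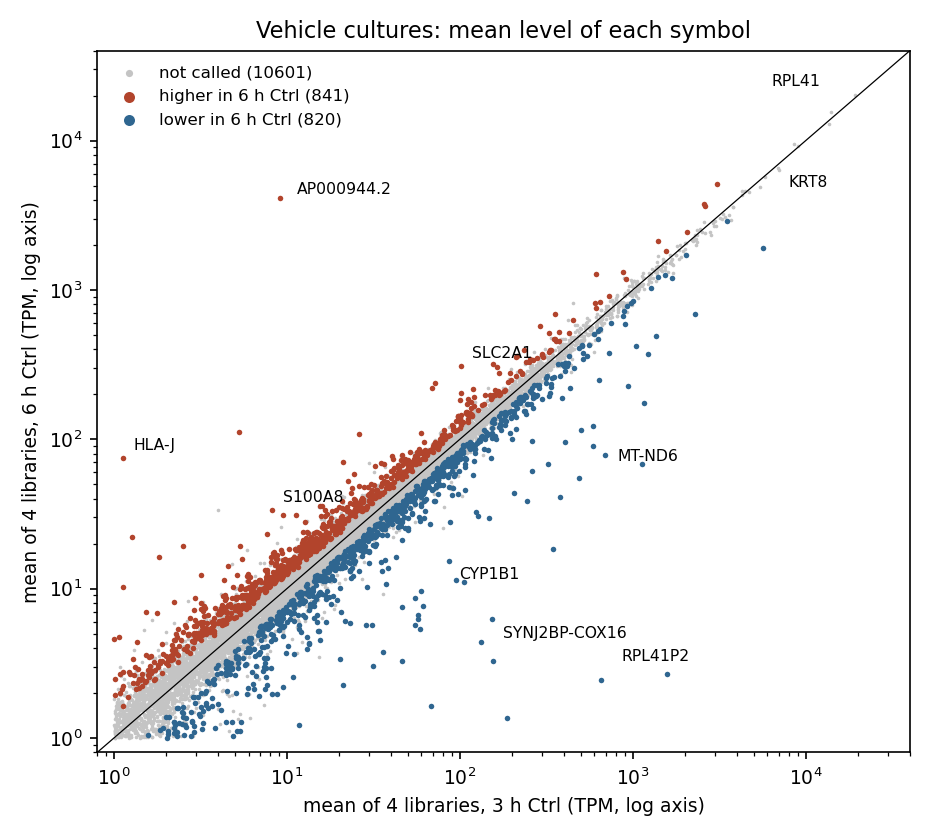
Mean level of each of the 12262 symbols in 6 h Ctrl (vertical axis) and 3 h Ctrl (horizontal axis), in TPM on log axes, each point a mean of 4 libraries. Red points were called higher (841) and blue points lower (820) in 6 h Ctrl, and most points lie close to the line of equal levels.

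Several shifts were larger where the annotation of the tables differed. Of the 388 symbols whose gene IDs differed, 30.4% were called and 12.6% were called and shifted by more than 1, against 12.99% and 0.918% of the 11874 symbols with 1 and the same ID. The extreme was RPL41P2, a processed pseudogene of RPL41, with 1.09 to 3.97 TPM at 6 h and 1539.9 to 1628 TPM at 3 h, where it carried an additional gene ID. TRIM27 had 16.7 to 20.7 TPM at 6 h under 1 ID and 279.8 to 395 TPM at 3 h summed over 5 IDs, and SMIM10L1 had 4.18 to 4.49 and 110.0 to 167 TPM. AP000944.2, a symbol that stood for different gene IDs in the tables, had 3297 to 5279.9 TPM at 6 h and 7.54 to 11.5 TPM at 3 h. The pseudogenes HLA-J and HLA-H were higher at 6 h, by 5.17 ± 0.14 and 4.16 ± 0.09. None of these values can be read as a change of 1 gene.

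Readings of a gene that shares exons with a neighbour also moved apart with the same ID in both tables. SYNJ2BP-COX16, a readthrough of neighbouring genes, had 7.48, 8.57, 3.42 and 5.48 TPM in 6 h Ctrl and 141, 147, 160.3 and 169.8 TPM in 3 h Ctrl, while COX16, which shares its exons, had 242, 224, 237 and 252 TPM at 6 h and 69.9, 71.5, 78.0 and 69.9 TPM at 3 h. The pair thus shifted in opposite directions, by -4.48 ± 0.21 and 1.71 ± 0.06 (adjusted p from limma = 1.8e-06 and 2.34e-07). MT-ND6, the mitochondrial mRNA encoded on the strand opposite to the other 12, had 58.6 to 108 TPM at 6 h and 588 to 776 TPM at 3 h, a difference of -3.14 ± 0.17 (adjusted p from limma = 4.08e-06), and none of the other 12 mitochondrial mRNAs was called. Whether strand handling or transcript models played a part in these values was not tested.

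Among protein-coding and lncRNA symbols with 1 ID and groups that did not overlap, the rest of the 12 largest falls were MTCP1, FAM220A, MPLKIP, NPIPA9, IL24, DNLZ, PC, CYP1B1, NT5DC4 and AMDHD1. Clone names were left out, as were symbols with a library of the higher group at or below 1 TPM. Some clone names left out had 1 ID and larger shifts, such as AD000091.1 (-7.71) and AP001931.1 (3.48). The 3 h values of MTCP1 (52.6 to 58.1 TPM), MPLKIP (20.7 to 21.2 TPM) and DNLZ (10.7 to 12.5 TPM) stood far above those at 6 h, which were 4.84 to 6.12, 2.09 to 2.42 and 1.03 to 1.40 TPM, with little spread within a group. FAM220A shares 92.8% of its exon bases with another gene on its strand, and MTCP1 36.9%. Pyruvate carboxylase (PC), which feeds the citric acid cycle, averaged 7.48 ± 1.36 TPM at 6 h and 46.4 ± 4.08 TPM at 3 h (SD, n = 4 each). On the other side, by the same rule, the 12 largest rises were RAD54L, S100A8, SLX1B, COX16, TYMP, NDUFA1, ASXL2, SLC2A1, YPEL1, HDAC11, FOLR1 and MLYCD. RAD54L, a motor protein of homologous recombination, had 87.6 to 127 TPM at 6 h and 25.1 to 27.8 TPM at 3 h, and 19.9% of its exon bases lie opposite the exons of another gene. NDUFA1, a subunit of respiratory complex I with no overlapping gene, had 201 to 241 TPM at 6 h and 66.2 to 72.1 TPM at 3 h. HDAC11 lost the call in 5 of the 8 fits that left out a library (adjusted p up to 0.0708, limma), IL24 also in 5 (adjusted p up to 0.0821), and the other 22 kept it in all 8.

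A narrower set avoids those overlaps, chosen after the values were seen: 5181 protein-coding symbols with 1 ID and no exon shared with another gene on either strand. CYP1B1, IL24 and SLC2A1, described below, were outside it, since exon bases of each overlap another gene. In that set 6.83% were called higher (354) and 6.41% lower (332), shares close to those of all symbols. Its largest rise was S100A8, a calcium-binding protein of the epidermal differentiation cluster that epithelia release under stress (chr1:153390032-153391073, GENCODE 44). S100A8 had 25.2, 45.9, 36.6 and 26.2 TPM in 6 h Ctrl and 6.67, 10.2, 10.5 and 5.62 TPM in 3 h Ctrl, a difference of 1.90 ± 0.24 (adjusted p from limma = 0.00151). The groups did not overlap. The other 11 of its 12 largest rises included S100A2, with 45.9 to 58.7 TPM at 6 h and 20.5 to 26.0 TPM at 3 h, S100P, with 22.7 to 45.4 and 13.3 to 20.0 TPM, and the folate receptor FOLR1, with 6.05 to 11.3 and 1.71 to 3.06 TPM. ASXL2, NFKB2, ABHD12, SLPI, CEBPD, SEMA6C, MRPL41 and NDUFA1 were the rest.

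The 12 largest falls of that set began with AMDHD1, GPX3 and CRCT1. CRCT1, a gene of the epidermal differentiation complex, had 5.35, 5.58, 5.42 and 7.36 TPM in 6 h Ctrl and 46.2, 10.5, 16.6 and 20.0 TPM in 3 h Ctrl, and involucrin (IVL), a precursor of the envelope, had 1.62 to 2.88 and 4.41 to 9.11 TPM. CRCT1 lost its call without replicate 1, 2 or 3 of the 6 h group (adjusted p up to 0.0542, limma) and IVL kept it in all 8 fits. GPX3, a secreted glutathione peroxidase, had 4.27 to 7.79 TPM at 6 h and 19.3 to 23.6 TPM at 3 h. The calcium-binding protein CALB1 had 10.7 to 17.4 and 31.2 to 56.4 TPM. The others were OR4F17, TIPARP, SPP2, PHLDA2, NAV3, MAB21L4 and ZNHIT6, each with groups that did not overlap.

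Both AhR targets that passed were lower in 6 h Ctrl. Of 7 listed genes 3 were measured at or above the level filter, and 2 of these were lower in 6 h Ctrl. CYP1B1, the cytochrome P450 that oxidises polycyclic compounds and estrogens (chr2:38066973-38109902, GENCODE 44), had 13.7, 10.7, 17.2 and 20.1 TPM in 6 h Ctrl and 61.5, 95.1, 95.9 and 94.5 TPM in 3 h Ctrl. Every 6 h culture lay below every 3 h culture, with a difference of -2.43 ± 0.20 (adjusted p from limma = 0.000106). TIPARP, a mono-ADP-ribosyltransferase that feeds back on AhR and whose window is printed above, had 8.21, 5.70, 7.74 and 6.12 TPM at 6 h and 23.1, 16.4, 20.6 and 21.9 TPM at 3 h, a difference of -1.44 ± 0.14 (adjusted p from limma = 0.000274). Both kept the call in all 8 fits. TIPARP was in the narrower set without overlapping genes and CYP1B1 was not, so the TPM of CYP1B1 is less certain. NQO1, which NRF2 also drives, had 162 to 176 and 175 to 199 TPM and did not pass (adjusted p from limma = 0.0834).

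Few immediate-early and ERK output genes passed, all of them lower in 6 h Ctrl, and 1 library of the 3 h group stood above the rest for most. Of 26 immediate-early genes tested, 3 fell, 0 rose and the median difference was -0.25. Of 19 ERK feedback and output genes, 3 fell, 0 rose and the median was -0.43, and of 6 EGFR ligand genes 2 fell, with a median of -0.57. Cyclin D1 (CCND1), which carries cells into the cell cycle, had 71.3, 87.0, 89.7 and 89.4 TPM in 6 h Ctrl and 196, 107, 132 and 144 TPM in 3 h Ctrl. The urokinase gene PLAU, a protease of wound repair, had 163, 162, 179 and 148 TPM at 6 h and 380.5, 216, 221 and 242 TPM at 3 h. The groups did not overlap for either, and the highest value belonged to replicate 1 of the 3 h group for both. CCND1 lost the call without replicate 1 or 2 of the 6 h group or replicate 4 of the 3 h group (adjusted p up to 0.0558, limma), and PLAU lost it without any 1 library of the 6 h group or replicate 4 of the 3 h group (adjusted p up to 0.0744).

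That library was the highest of the 3 h group for 22 of the 26 immediate-early genes, 18 of the 19 ERK genes and 16 of 22 cytokine and chemokine genes, against 3642 of all 12262 symbols. Without it the immediate-early median was -0.16, with 3 falls and 0 rises. The ERK median was then -0.28, with 3 falls and 1 rise, and the EGFR ligand list had 0 calls with a median of -0.42. FOSL1, a member of the AP-1 factor, had 23.2 to 29.6 TPM at 6 h and 161, 33.6, 47.0 and 76.4 TPM at 3 h. It missed the threshold with all libraries (adjusted p = 0.054, limma) and passed it without that one (adjusted p = 0.0444). The fast-decaying genes FOS and EGR1 had 6.01 to 13.6 and 22.1 to 30.3 TPM at 6 h, and 5.58 to 12.5 and 19.7 to 28.7 TPM at 3 h, and neither passed. Beside TIPARP, which is also on that list, IER2 and MAFK were the immediate-early calls, DUSP7 the other ERK call, and EPGN and TGFA the ligand calls, and each of these 5 lost its call in 5 to 8 of the 8 fits without a library (adjusted p up to 0.11).

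**Figure D2:**
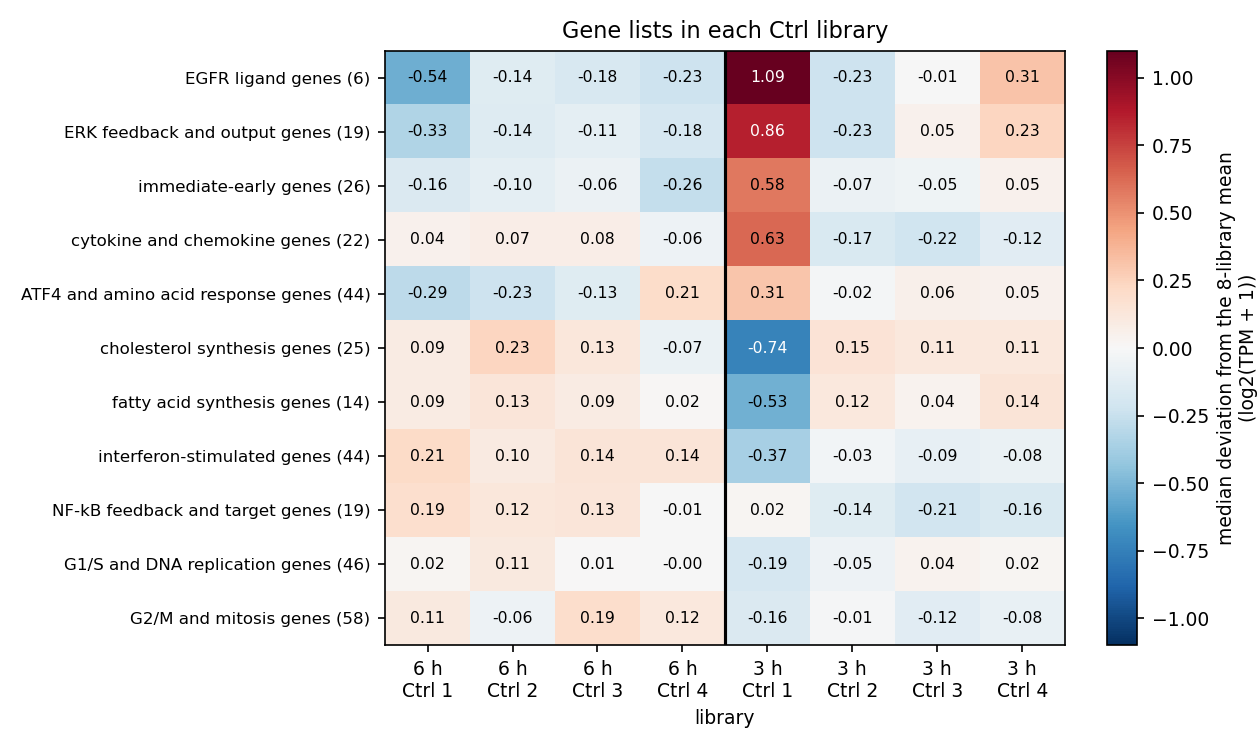
Gene lists (rows, with the number of symbols tested) in the 8 Ctrl libraries (columns, 6 h left of 3 h). Each cell gives the median over the list of the deviation from the 8-library mean, in log2(TPM + 1); replicate 1 of the 3 h group reads 0.86 for the ERK list and -0.74 for cholesterol synthesis, and its 3 companions read -0.23 to 0.23 and 0.11 to 0.15.

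The same library stood apart in sterol and fatty acid synthesis. All 25 cholesterol synthesis genes and 13 of 14 fatty acid synthesis genes had their lowest 3 h value in it, as had 40 of 46 G1/S genes and 32 of 44 interferon-stimulated genes, against 4507 of all symbols. FADS2, a fatty acid desaturase, had 221 to 283 TPM at 6 h and 83.7, 261, 229.7 and 256 TPM at 3 h, and did not pass. In the cholesterol list 1 gene rose and 2 fell with a median of 0.16, which was -0.04 without that library, and 2 rose and 3 fell there. The falls, LSS and FDFT1, were both symbols whose gene IDs differed between the tables. PMVK, a kinase of the mevalonate pathway with 1 ID, had 23.8 to 26.7 TPM at 6 h and 14.4 to 18.3 TPM at 3 h, and rose by 0.63 ± 0.09 (adjusted p from limma = 0.00332). In the fatty acid list 0 of 14 passed, with ACSL3 and FADS2 the highest members. What set that culture apart was not tested.

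Of 22 cytokine and chemokine genes tested, CCL5 rose and IL24 fell, with a median over the list of 0.08. The chemokine CCL5, which attracts T cells and eosinophils, had 341, 294, 315 and 270.3 TPM in 6 h Ctrl and 103, 196, 174 and 185 TPM in 3 h Ctrl, a difference of 0.93 ± 0.19 (adjusted p from limma = 0.0149), and it kept the call in all 8 fits. IL24, related to interleukin 10, had 4.18, 7.12, 5.49 and 4.77 TPM at 6 h and 164, 12.5, 41.1 and 18.0 TPM at 3 h. The groups did not overlap, but the 3 h values spread more than 10 times, and the difference was -1.81 without replicate 1 of the 3 h group in place of -2.54 (adjusted p = 0.0181 and 0.0362, limma). CXCL8, the neutrophil chemokine, had 24.3 to 47.4 TPM at 6 h and 56.5, 23.2, 16.1 and 19.1 TPM at 3 h, and passed only without that library (adjusted p = 0.0463 against 0.363 with it, limma).

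NF-kB genes had rises and no falls. Of 19 tested, 6 rose and 0 fell, with a median of 0.18, and 6 rose without replicate 1 of the 3 h group too, with a median of 0.31. NFKB2, the precursor of the p52 subunit in the noncanonical pathway, had 68.3, 54.3, 59.4 and 53.4 TPM in 6 h Ctrl and 32.8, 21.6, 18.5 and 25.3 TPM in 3 h Ctrl, a difference of 1.25 ± 0.16 (adjusted p from limma = 0.00176). ICAM1, the adhesion molecule that leukocytes and rhinoviruses bind, had 34.6, 30.9, 29.8 and 27.3 TPM at 6 h and 13.1, 19.5, 14.2 and 16.5 TPM at 3 h, a difference of 0.92 ± 0.12 (adjusted p from limma = 0.00233). In both the 6 h cultures lay above all 3 h cultures. NFKBIZ, an atypical inhibitor of kappa-B, and the deubiquitinase CYLD rose by 0.69 ± 0.13 and 0.40 ± 0.08 (adjusted p from limma = 0.012 for each). These 4 kept the call in all 8 fits, whereas NFKB1 and TNFAIP2 lost it in 7 and 6 of them (adjusted p up to 0.102). The fast feedback genes NFKBIA and TNFAIP3 did not pass, with 151 to 236 and 39.4 to 50.1 TPM at 6 h, and 167 to 254 and 34.9 to 84.7 TPM at 3 h.

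Interferon-stimulated genes had the largest number of rises of any list, though not the largest share of members. Of 44 tested, 13 rose and 2 fell, against 6.86% and 6.69% of all symbols. The mean was higher at 6 h in 39, and the median was 0.30. Without replicate 1 of the 3 h group 10 rose, 1 fell and the median was 0.24. OAS2, a sensor of double-stranded RNA, had 9.68, 8.83, 10.5 and 7.10 TPM in 6 h Ctrl and 3.41, 5.54, 3.53 and 5.03 TPM in 3 h Ctrl. XAF1 had 7.77 to 9.68 TPM at 6 h and 3.21 to 4.79 TPM at 3 h, and PARP14 had 25.9 to 31.8 and 17.5 to 21.0 TPM. These 3 rose by 0.91 ± 0.16, 0.92 ± 0.12 and 0.51 ± 0.09 (adjusted p from limma = 0.00848, 0.00203 and 0.00769). IFI27, whose gene IDs differed between the tables, had 13.3 to 30.9 TPM at 6 h and 6.49 to 8.42 TPM at 3 h. One of the classic members went against the list. IFIT1, which binds viral RNA that lacks cap methylation and whose window with 2 matches to GAAANNGAAA is printed above, had 24.3, 23.4, 24.6 and 26.5 TPM at 6 h and 35.0, 52.8, 55.6 and 56.7 TPM at 3 h, a fall of 0.97 on that scale (adjusted p from limma = 0.00361). TRIM22 was the other fall, and it lost the call in 7 of 8 fits (adjusted p up to 0.092).

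Peptide presentation could not be read across the tables, since 11 of the 15 HLA class I and peptide loading genes tested had differing gene IDs. In that list 2 rose and 3 fell. HLA-C had 457 to 523 TPM at 6 h and 1254 to 1467 TPM at 3 h, HLA-F 219 to 231 and 830.1 to 1149 TPM, and TAPBP 70.04 to 99.2 and 122 to 158 TPM, while B2M, the shared light chain, had 3560.1 to 3722 TPM at 6 h and 2262 to 2800.2 TPM at 3 h. Of the 4 members with 1 ID, 0 passed.

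**Figure D3:**
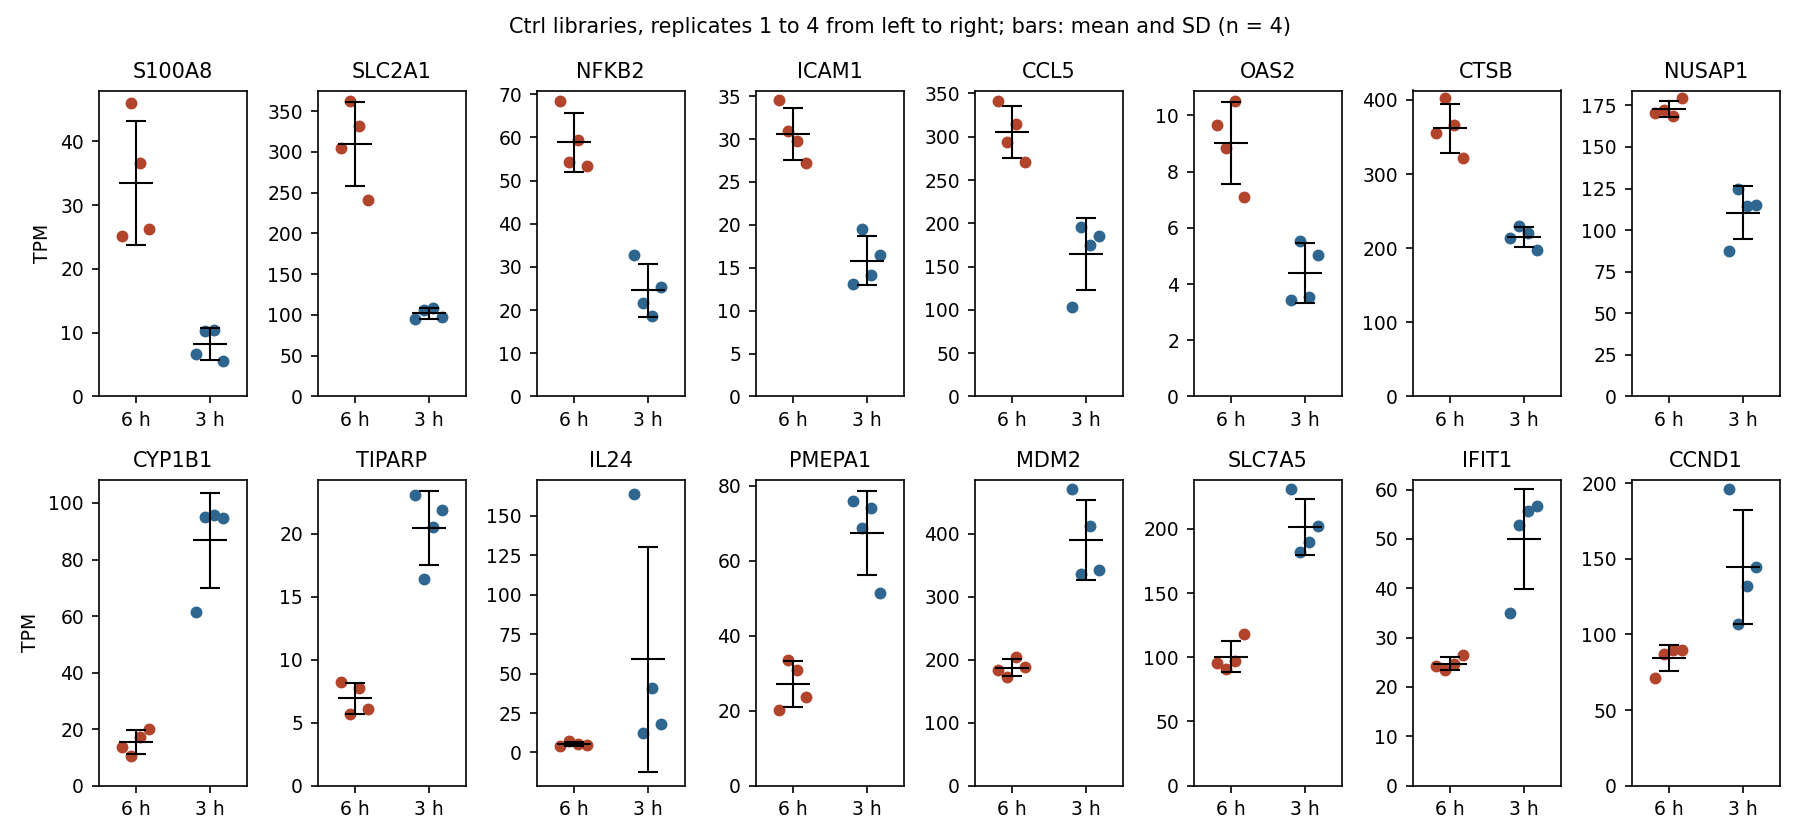
TPM of 16 named genes in each Ctrl library, 6 h left of 3 h in every panel, replicates 1 to 4 from left to right, with the mean and SD of 4 libraries. The 8 genes of the upper row were called higher in 6 h Ctrl and the 8 of the lower row lower, and the groups do not overlap in any panel; IL24 in 3 h Ctrl spans 12.5 to 164 TPM.

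A few HIF targets rose, and no glycolytic enzyme did. Of 30 HIF targets tested, 4 rose and 0 fell, against 6.86% and 6.69% of all symbols, with a median of 0.12. Without replicate 1 of the 3 h group 4 rose and 1 fell. Replicate 4 of the 6 h group stood apart, with a median deviation from the 8-library mean of -0.21. That is below all 3 h libraries, which read -0.19 to 0.01, while the other 6 h libraries read 0.14 to 0.25. SLC2A1, the main glucose importer of epithelial cells, had 304, 362, 332 and 240.4 TPM in 6 h Ctrl and 95.2, 106, 108 and 97.6 TPM in 3 h Ctrl, a difference of 1.58 ± 0.12 (adjusted p from limma = 4.8e-05). The lowest 6 h culture was more than 2 times the highest 3 h culture. SLC2A1 was outside the narrower set, since its exons overlap another gene. EGLN1, the prolyl hydroxylase that marks HIF for destruction, had 26.2 to 34.4 TPM at 6 h and 15.8 to 17.3 TPM at 3 h, and INSIG2, which retains the sterol sensor SCAP, had 26.3 to 33.6 and 15.9 to 19.6 TPM. KDM3A, a histone demethylase, had 32.1 to 38.2 and 18.4 to 27.6 TPM, and all 4 kept the call in all 8 fits. Of 16 glycolytic enzymes tested 0 rose and 2 fell, the muscle-type phosphofructokinase PFKM with 27.1 to 32.5 TPM at 6 h and 48.4 to 68.8 TPM at 3 h, and LDHB with 405 to 444 and 469 to 546 TPM. LDHB lost the call in 7 of 8 fits (adjusted p up to 0.0771, limma).

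Of 22 NRF2 targets, 1 rose and 5 fell, with a median of -0.20. Thioredoxin reductase (TXNRD1) had 159, 170.2, 182 and 173 TPM in 6 h Ctrl and 308, 230.5, 226 and 263 TPM in 3 h Ctrl, a difference of -0.57 ± 0.10 (adjusted p from limma = 0.00775), and sulfiredoxin (SRXN1) had 20.5 to 25.5 and 28.3 to 36.2 TPM. Both kept the call in all 8 fits, and PRDX1, SLC3A2 and GCLM, which fell, and PGD, which rose, each lost it in 4 to 6 fits. Of 44 ATF4 and amino acid response genes, 0 rose and 3 fell, a share of falls close to the 6.69% over all symbols, with a median of -0.22, and 37 of them had their highest 3 h value in replicate 1. Without it 3 fell and the median was -0.13. Replicate 4 of the 6 h group went the other way, with a median deviation from the 8-library mean of 0.21. The other 6 h libraries read -0.29 to -0.13, and the 3 h libraries -0.02 to 0.31. SLC7A5, the transporter of large neutral amino acids, had 95.8, 90.7, 97.3 and 118 TPM at 6 h and 231, 182, 189.7 and 203 TPM at 3 h, a difference of -0.997 ± 0.10 (adjusted p from limma = 0.000386). Its groups were far apart, and SLC3A2, its partner chain, had 247 to 373 TPM at 6 h and 397 to 566 TPM at 3 h.

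TGF-beta and BMP targets had 5 falls and 0 rises among 14 tested, with a median of -0.18, and 3 falls without replicate 1 of the 3 h group. PMEPA1, an inhibitor of TGF-beta signalling that the pathway itself induces, had 20.3, 33.5, 30.9 and 23.8 TPM in 6 h Ctrl and 76.0, 68.7, 74.0 and 51.4 TPM in 3 h Ctrl, a difference of -1.30 ± 0.17 (adjusted p from limma = 0.00226). The BMP antagonist NOG had 2.80 to 4.26 TPM at 6 h and 5.89 to 9.13 TPM at 3 h, and the factor ID4 had 1.07 to 1.55 and 2.63 to 3.07 TPM. These 3 kept the call in all 8 fits, and SMAD7 lost it in 7 (adjusted p up to 0.0847, limma). Among 18 YAP and TEAD targets 4 fell and 0 rose, with a median of -0.24, namely CRIM1, whose gene IDs differed, and MYOF, TGFB2 and FJX1, which lost the call in 2, 4 and 6 fits. CCN1 and CCN2 carried other symbols at 3 h and were not among the 18. Compared by gene ID neither passed (adjusted p from limma = 0.313 and 0.263). Replicate 1 of the 3 h group had 231 and 28.9 TPM of them, and the other 3 h libraries 111 to 118 and 8.88 to 11.3 TPM.

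Of 24 p53 targets 1 rose and 2 fell, in cells whose p53 the large T antigen binds. MDM2, the ubiquitin ligase that degrades p53, had 184, 172, 205 and 189 TPM in 6 h Ctrl and 471, 337, 412 and 343 TPM in 3 h Ctrl, a difference of -1.04 ± 0.11 (adjusted p from limma = 0.000525). No culture overlapped. TIGAR had 11.7 to 17.4 TPM at 6 h and 20.3 to 25.1 TPM at 3 h, and the rise of FDXR was lost in 7 of 8 fits (adjusted p up to 0.0996, limma).

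Of 58 G2/M genes, 11 rose, 0 fell and 47 did not pass, where 6.86% of all symbols were called higher and 6.69% lower. The mean was higher at 6 h in 46 and lower in 12, and the median was 0.18. Without replicate 1 of the 3 h group 8 rose, 0 fell and the median was 0.16. The groups overlapped in the median deviation of the list from the 8-library mean. It was -0.06 in replicate 2 of the 6 h group, 0.11 to 0.19 in the other 6 h libraries and -0.16 to -0.01 at 3 h. NUSAP1, a spindle protein, had 171, 172, 169 and 179 TPM in 6 h Ctrl and 87.7, 125, 114 and 115 TPM in 3 h Ctrl, and NDC80, an outer kinetochore subunit, had 79.2 to 86.9 and 55.5 to 62.4 TPM. They rose by 0.65 ± 0.10 and 0.51 ± 0.06 (adjusted p from limma = 0.00449 and 0.00152). CDK1 had 143 to 156 TPM at 6 h and 110.2 to 119.6 TPM at 3 h, and the checkpoint kinase BUB1B 38.1 to 49.3 and 28.8 to 33.1 TPM. CCNB1 had 250.02 to 340.2 TPM at 6 h and 295 to 351 TPM at 3 h, MKI67 had 49.8 to 91.3 and 50.2 to 59.3 TPM, and neither passed. Of 46 G1/S genes 4 rose and 1 fell, a share of calls below the 13.5% over all symbols. Their median was 0.08, and 2 rose and 2 fell without replicate 1 of the 3 h group. BRCA1, POLA2 and CLSPN, the last of which fell, each lost the call in 1 to 7 fits. Of 24 histone genes 3 rose, led by the replacement histone H3F3A with 516 to 619 TPM at 6 h and 242 to 317 TPM at 3 h.

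**Figure D4:**
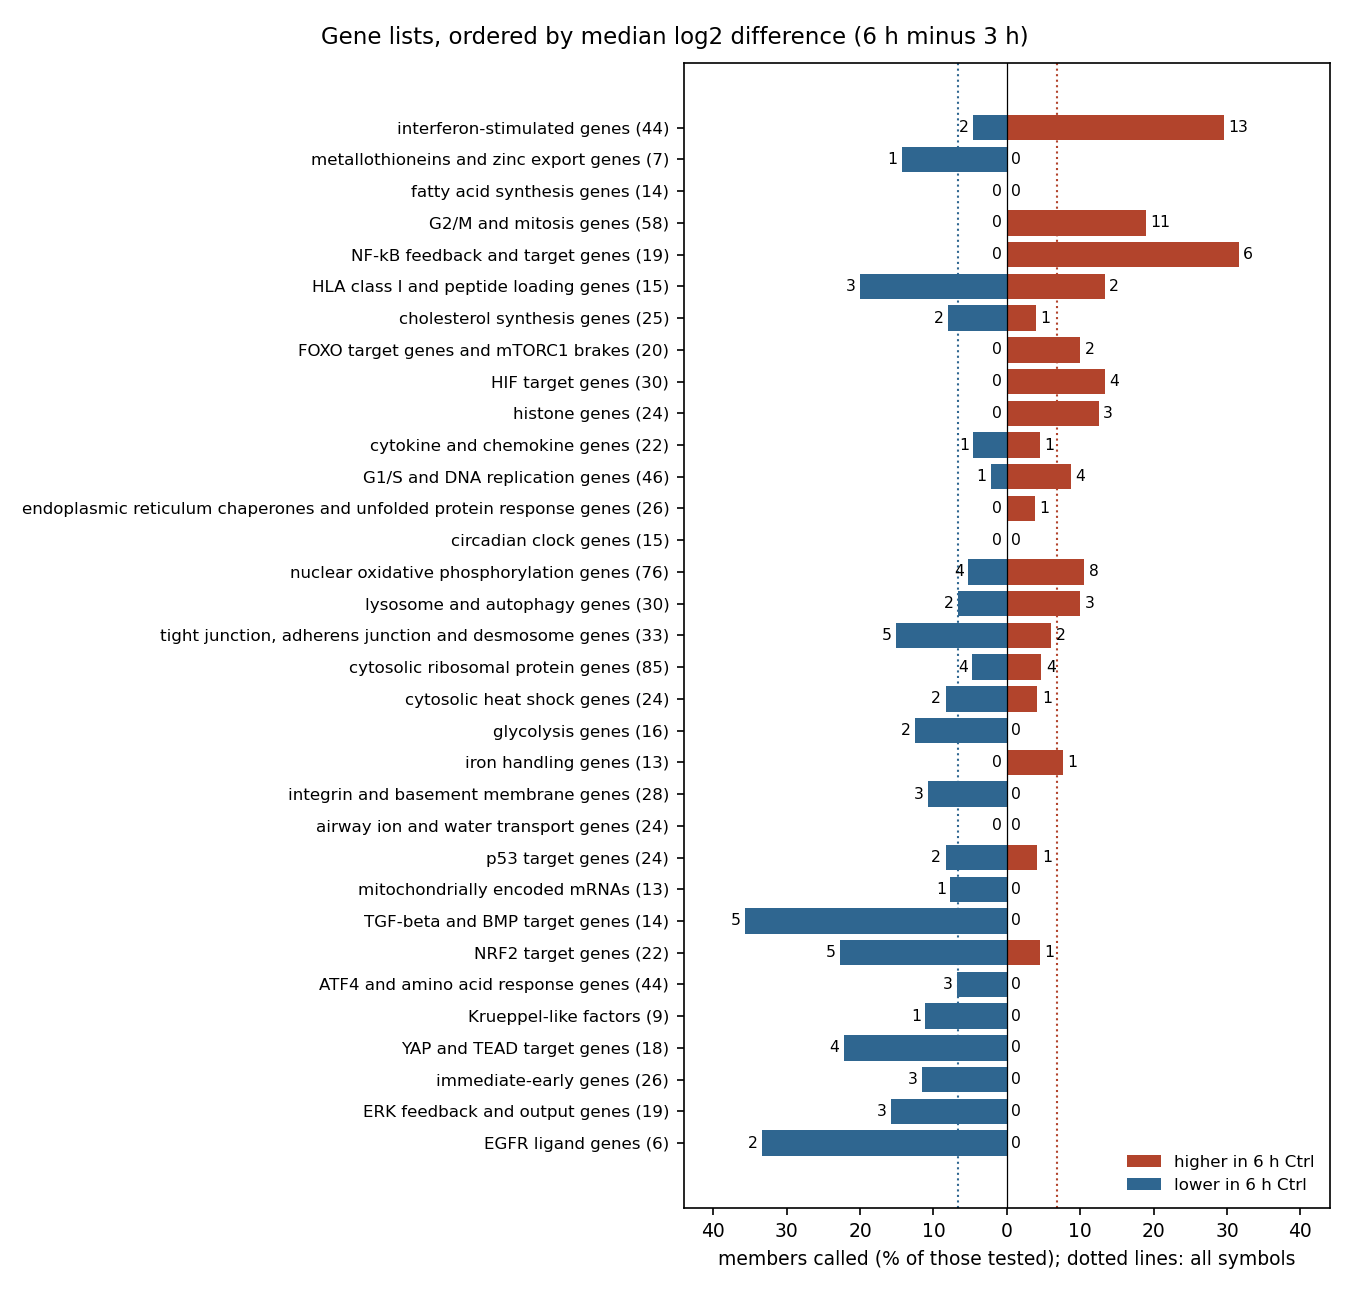
Members called higher (red, to the right) and lower (blue, to the left) in 6 h Ctrl, as a percentage of the members tested in each list with at least 6 tested (marker lists not drawn), ordered by the median difference; numbers at the bars are counts and dotted lines mark 6.86% and 6.69%, the shares over all symbols. The interferon list had 13 rises of 44 and the TGF-beta and BMP list 5 falls of 14.

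Of 33 junction genes 2 rose and 5 fell, with a median of 0.00, and these 7 calls compare with 13.5% called over all symbols. Occludin (OCLN), whose gene IDs differed, had 60.0 to 63.1 TPM at 6 h and 89.2 to 108 TPM at 3 h, a difference of -0.68. JUP, CTNND1 and CDH1 shifted by -0.27, 0.26 and -0.26 and lost the call in 1, 6 and 6 fits. Of 28 integrin and basement membrane genes 3 fell, THBS1 by 0.86, LAMA3 by 0.81 and TIMP3 by 0.64 on the log2 scale, each losing the call in 4 to 7 fits. Of 24 genes of airway ion and water transport 0 passed, as did 0 of 15 circadian clock genes, and the highest members of these lists were ATP1B3 and CLIC1, and CSNK1E and BHLHE40. At an unadjusted threshold of 0.05 the counts were 6 and 3. Among basal markers S100A2 rose while SFN and KRT5 fell, SFN with 302 to 344 TPM at 6 h and 388 to 464 TPM at 3 h. Among simple epithelial markers CDH1, KRT80 and KRT7 fell, each losing the call in 6 or 7 fits. SLPI, the secreted leukocyte protease inhibitor, had 56.2 to 84.1 TPM at 6 h and 24.8 to 47.2 TPM at 3 h, and lost the call in 4 fits (adjusted p up to 0.0668, limma). Of 3 fibroblast markers measured ACTA2 rose, with 2.98 to 3.83 TPM at 6 h and 1.62 to 2.73 TPM at 3 h, and it lost the call in 6 fits (adjusted p up to 0.0947). SCGB3A2, a secretoglobin, was under the level filter at 6 h, with 0.0832 to 0.244 TPM, and had 17.8 to 34.9 TPM at 3 h under the same gene ID.

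Several further lists had few calls, where 6.86% of all symbols were called higher and 6.69% lower. Of 26 endoplasmic reticulum genes PDIA3 rose, and of 24 heat shock genes DNAJB4 rose while HSPA1B and HSPB8 fell. INSR and PNRC1 rose among 20 FOXO targets and mTORC1 brakes. Of 30 lysosome and autophagy genes 3 rose and 2 fell, not far from those shares. Cathepsin B (CTSB), a lysosomal protease, had the smallest p of these, with 356, 402, 366 and 322 TPM in 6 h Ctrl and 213, 229, 220.1 and 198 TPM in 3 h Ctrl, a difference of 0.74 ± 0.08 (adjusted p from limma = 0.000483). Of 76 nuclear genes of oxidative phosphorylation 8 rose and 4 fell, 12 calls against 13.5% over all symbols, among them NDUFA1, ATP5ME and NDUFB5 upward and COX7B downward. Of 85 ribosomal protein genes 4 rose and 4 fell, each below the share over all symbols. RPS12, a call with 1 ID, stood at 1145 to 1443 TPM at 6 h and 827 to 938 TPM at 3 h. SLC30A1 fell in the list of 7 metallothionein and zinc export genes, SLC11A2 rose among 13 iron genes, and KLF16 fell among 9 Krueppel-like factors.

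The share of TPM held by the 13 mitochondrial mRNAs was 3.42 ± 0.759% in 6 h Ctrl and 3.57 ± 0.493% in 3 h Ctrl (SD, n = 4 each, two-sided exact permutation test p = 0.743). Ribosomal protein genes held 13.01 ± 0.935% at 6 h and 13.6 ± 0.372% at 3 h (n = 4 each, two-sided exact permutation test p = 0.314). The smallest p that 4 against 4 libraries allow is 0.0286, and neither difference exceeded the spread between cultures.

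The cultures that received D. rotundifolia 3× at the same times gave the same contrast on other libraries, from the same experiments and tables. In them 10.8% of symbols were called (1325), and 1634 of the 1661 symbols called in Ctrl had the same sign. The calls shared with the same sign numbered 778, which were 46.8% of the Ctrl calls and 58.7% of the treated calls. Because both contrasts share experiment and annotation, this is no second test of time. SLC2A1 differed by 2.12 in treated and 1.58 in Ctrl cultures, S100A8 by 1.70 in treated and 1.90 in Ctrl cultures, and TIPARP by -1.24 in treated and -1.44 in Ctrl cultures. The difference between the contrasts passed for 1 symbol, 0.00816% of those tested, with 424 at an unadjusted p under 0.05. That symbol was CYP1B1, with 121, 117, 122 and 115 TPM in treated cultures at 6 h and 107, 167, 153 and 166 TPM at 3 h. Its contrast was -0.30 in treated cultures and -2.43 in Ctrl, a difference of 2.13 (adjusted p from limma = 0.00779). The treated cultures at 6 h thus lay above all Ctrl cultures of that time for CYP1B1. According to the paper, Ctrl and treated cells shared culture plates, and the fit of the difference between the contrasts had no term for that pairing. A symbol that did not pass is therefore not shown to have equal contrasts.

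**Figure D5:**
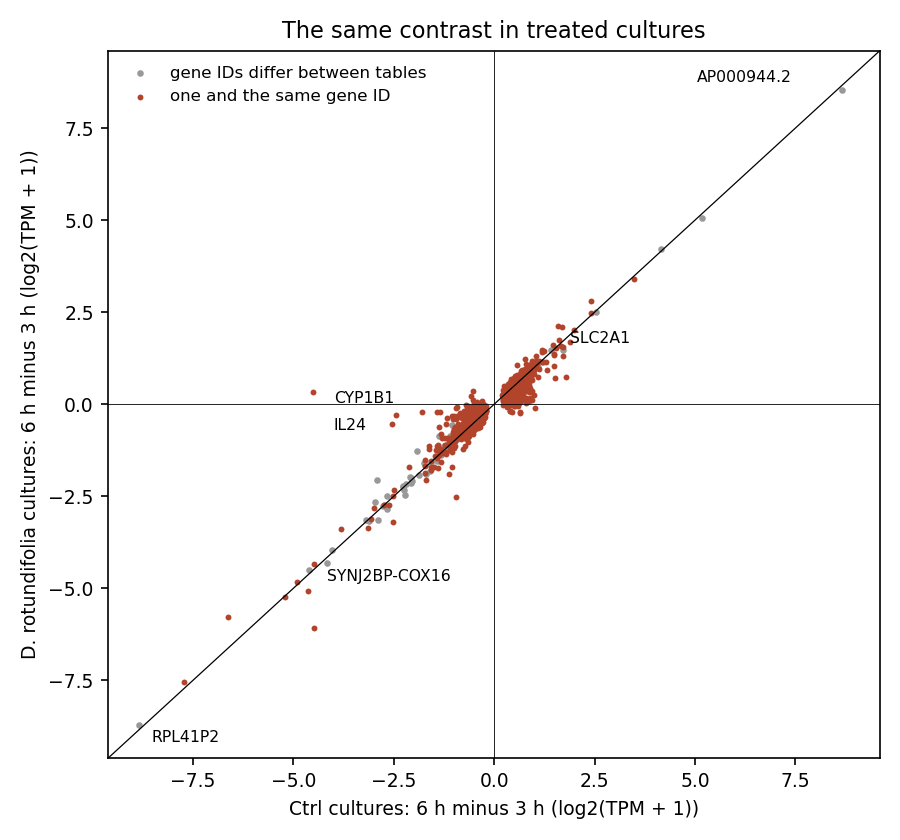
The 1661 symbols called in Ctrl, each with its 6 h minus 3 h difference in D. rotundifolia 3× cultures (vertical axis) and in Ctrl cultures (horizontal axis), in log2(TPM + 1). Most points lie near the line of equal differences, grey where gene IDs differ between the tables; CYP1B1 lies off it, at -0.30 and -2.43.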

How the data were processed

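16HBE cultures were profiled by poly(A)-selected, stranded, single-end RNA-seq. Per the labels and methods, the authors checked reads with FastQC, quantified them with Salmon 0.13.1 against GENCODE 32 (GRCh38.p13), imported them with tximport and used DESeq2 1.22.2 in R 3.5.3. These name 1 annotation, whereas the gene IDs listed at 6 h and at 3 h differed as described above. Which annotation each time used is unknown. The deposited tables hold length-scaled TPM values for each library, which keep no depth, so the depth of a library is unknown. They also hold the authors' pooled mean of normalised counts, a signal whose sum over genes was 30205203 at 6 h and 31902241 at 3 h. The authors' own treatment comparisons (fold change, its error, statistic and p-values) were not used. At 6 h, 89 repeated rows were dropped.

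TPM was summed by symbol, symbols with a mean under 1 TPM in either group were left out, and log2(TPM + 1) was fitted with limma 3.58.1 (trend, R 4.3.3), with Benjamini-Hochberg adjustment over all symbols. Shares of TPM were compared by exact permutation (scipy 1.17.1). Scripts were tested on simulated data. Coordinates, gene types and exon overlaps came from GENCODE 44, matched by gene ID, and promoter windows from RefSeq (GRCh38.p14). In these human cells copies of a gene can share reads, and TPM of pseudogenes and of overlapping genes is uncertain.

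Named were the 12 largest rises and falls among called symbols with 1 ID and groups that did not overlap, up to 4 called members of a list by p (up to 2 by level where none was called), the 15 highest nuclear protein-coding symbols, cell type markers and the 3 largest differences each way among symbols whose IDs differed. The 12 largest were taken from protein-coding and lncRNA symbols that are not clone names, with every library of the higher group above 1 TPM. Genes of the narrower set, other list members and the motifs were chosen after their values were seen. The comparison and the lists were chosen with earlier results of these data known. Alternatives covered the pseudocount, the level filter, scaling, gene ID handling, the trend, the libraries fitted, a replicate block and each library left out. A few items are not reported here.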

Additional observations from a re-analysis of the deposited data

Results flagged for a closer look

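Of 332 groups of 4 libraries looked at over the named genes, 22 had 1 library far from the other 3 by Dixon's 95% bound, where chance gives about 1 in 20 groups. Replicate 1 of the 3 h group was the distant library in 9 of them. It was high in ACTB (4364.8 TPM, the others 3225 to 3406), IER2 (17.7 TPM), PLAU (380.5 TPM), TNFAIP3 (84.7 TPM) and CALB1 (56.4 TPM), and low in CYP1B1 (61.5 TPM, the others 94.5 to 95.9), PRDX1 (939.7 TPM), MKI67 (50.2 TPM) and FDFT1 (604.6 TPM).

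In the 6 h group, replicate 1 was low in CCND1 (71.3 TPM), DUSP7 (3.31 TPM), FJX1 (3.14 TPM) and SLC30A1 (9.37 TPM). Replicate 2 was low in DNAJB4 (11.01 TPM, the others 12.26 to 12.29), KRT5 (36.1 TPM), MTCP1 (4.84 TPM) and OR4F17 (4.26 TPM), and high in NPIPA9 (15.7 TPM). Replicate 4 was high in KRT7 (1121 TPM) and CRCT1 (7.36 TPM). Of the remaining 3 h libraries, replicate 3 was high in SEMA6C (3.501 TPM) and replicate 4 in KRT5 (78.1 TPM).

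CYP1B1 stood out for another reason: its 6 h minus 3 h difference was 2.13 larger on the log2 scale in D. rotundifolia 3× cultures than in Ctrl cultures, by the limma interaction term.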

How the results depend on the processing

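The 841 higher and 820 lower calls became 432 and 437 with a replicate block, 9 and 45 when tested against a log2 difference of 1, 354 and 332 in the narrower set without overlapping genes, and 439 and 436 without replicate 1 of both times, the last 2 chosen after seeing the data. Leaving out 1 library gave 411 to 784 higher and 478 to 794 lower calls, fewest without replicate 2 of the 6 h group. The replicate numbers did not pair the samples (correlations of same-numbered deviations -0.0948, 0.0515, -0.0146 and -0.0172), and the block ended 37 of the 133 calls of named symbols. The other alternatives stayed within 1.5 times, with 664 to 1120 higher and 662 to 1172 lower. No named symbol changed direction under the alternatives run. With rescaling that left out mitochondrial and ribosomal protein genes, 59.5% of calls were rises, against 50.6%. The difference in mitochondrial share ranged from -0.375 to 0.207 percentage points and that in ribosomal protein share from -1.05 to -0.328 when 1 library was left out. TPM keeps no depth, so counting error could not be given.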

Other observations

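With a Ctrl mean of at least 1 TPM, 1653 symbols were listed at 6 h alone and 321 at 3 h alone, and these were not compared. Among the gene IDs that carried another symbol in each table, 91 were compared by ID, with 4 called higher and 8 lower in 6 h Ctrl by limma. Pseudogenes made up 643 of the symbols compared, and 91 of them (14.2%) were called.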
